A study of Arabidopsis thaliana with 27 samples.

Results

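HSA32 and the small heat shock proteins are genes that plant cells switch on strongly in heat and other protein-damaging stress. The set was named by locus, with earlier results of these data known. It holds HSA32 (AT4G21320) and 9 small heat shock protein loci. Each was counted only where a probe set of the ATH1 array is assigned to it alone. Of these 10 loci, 5 had such a probe set, out of 13513 probe sets assigned to 1 gene. They were HSA32, AT1G53540, AT2G29500, AT5G51440 and AT4G10250 (ATHSP22.0). AT1G07400 and AT1G59860 share 1 probe set, which measures neither alone, so no value is given for them. AT5G12020, AT3G46230 and AT4G25200 were not analysed here because the annotation used assigns them no probe set.

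Small heat shock proteins bind proteins that unfold and keep them from clumping until HSP70 and HSP100 chaperones refold them. Plants carry separate classes for the cytosol, nucleus, mitochondria, chloroplasts, peroxisomes and endoplasmic reticulum. HSA32 is a heat-stress-associated protein needed in Arabidopsis for long-term acquired thermotolerance, the protection that outlasts an earlier mild heat treatment. Transcription of these genes depends on heat shock factors, and it is usually low in unstressed vegetative tissue.

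The study measured RNA of Arabidopsis thaliana roots on 27 arrays. Growth was on MS medium containing 4.5% sucrose, with days of 16 h light and 8 h dark, and no heat treatment is given in the labels. Of the arrays, 15 came from 5 GFP marker lines with 3 arrays each. SCR:GFP, in Landsberg, is described as marking the endodermis and the quiescent centre, the small organising group of cells at the tip; its replicate 1 carries no tissue description. WOL:GFP, in Columbia, marks the stele and fades from the elongation zone on. J0571:GFP, also in Columbia, marks cortex, endodermis and quiescent centre, and GL2:GFP, in Columbia too, marks the hairless epidermal cells. J3411:GFP, in C24, marks lateral root cap and epidermis. The other 12 arrays came from Columbia root segments with 4 arrays per stage. Stage I lies at about 0.15 mm from the tip, where full diameter is reached, and Stage II at about 0.3 mm, where elongation begins. Stage III lies at 0.45 to 2 mm, where hairs are full length. The genetic background differs between SCR, J3411 and the other lines, so line and genetic background cannot be told apart there. The labels name neither how the marked cells were collected nor whether replicates came from separate cultures, so a p-value here measures only how far these arrays spread, which may be technical.

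Values are MAS5 signals on a linear scale, and a signal of 14.8 is used as the background, the 95th percentile of 12 bacterial control probe sets that were not spiked in. Differences are of log2(signal + 2.37), with 2.37 the 10th percentile of all signals, and understate the change of dim genes. They were tested with limma over 22746 probe sets at a Benjamini-Hochberg adjusted p of 0.05. Signals of different probe sets are not compared with one another.

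SCR replicate 1 stood apart from SCR replicates 2 and 3 in more than these genes. The cre spike-in controls split the arrays into a low class of 8 and a high class of 19. SCR replicates 2 and 3 were of the low class, with replicates 1 and 2 of each stage. SCR replicate 1 was of the high class, with the 12 arrays of the other lines and replicates 3 and 4 of each stage. The GAPDH 3'/5' signal ratio, which grows as RNA or its labelling gets poorer, was 0.717 to 4.09 on SCR replicates 2 and 3, 1.29 on SCR replicate 1 and 0.717 to 1.95 on the other line arrays. The lateral root cap marker sks15, the 1 of 5 root cap markers measured, had a signal of 43.9 to 46.5 on SCR replicates 2 and 3, 338 on SCR replicate 1 and 59.1 to 3163 in the other lines. The 2 of 5 root hair markers measured, EXPA7 and EXPA18, summed to 20.9 to 25.5 on SCR replicates 2 and 3, 164 on SCR replicate 1 and 35.4 to 536 in the other lines. The 3 of 4 cortex markers summed to 153 to 166 on SCR replicates 2 and 3 and to 153 on SCR replicate 1. The quiescent centre marker AGL42, 1 of 2, was at 53.7 to 56.6 and 38.7 on those arrays, and the stele marker PHV, 1 of 7, at 18.9 to 19.3 and 18.6. In the other lines AGL42 was at 50.4 to 65.4 in WOL, 7.17 to 24.1 in J0571, 1.24 to 16.8 in GL2 and 0.842 to 3.31 in J3411. In Stage III it was at 87.6 to 146. AGL42 thus did not set the lines described as marking the quiescent centre apart from WOL. None of 8 endodermis markers and none of 3 non-hair epidermis markers was measured, so the tissues named for SCR and GL2 were not checked. The part of these differences in the results below was not tested.

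All 5 genes were higher in SCR than in the mean of the other 4 lines, and on every one of them the level rested on SCR replicates 2 and 3. In this comparison 17.5% of all probe sets were called and 7.61% were called higher. The median difference of the 5 genes was 2.48 on the log2 scale, against -0.07 over all probe sets. In none of the 5 did the SCR arrays separate from the 12 arrays of the other lines, since replicate 1 lay within their range each time. The limma fit assumed 1 spread per gene for all 5 lines. For the 5 genes the standard deviation between arrays was 1.58 to 2.70 on the log2 scale in SCR and 0.38 to 0.90 in the other lines. With all 3 SCR arrays, the intervals below are therefore too narrow and the adjusted p-values too small, also against J0571.

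In SCR the HSA32 signals were 68.3, 476 and 456. In the other lines it was at 34.9, 72.9 and 56.2 in WOL, at 58.2, 47.2 and 63.3 in J0571, at 26.1, 43.4 and 44.6 in GL2 and at 79.7, 59.3 and 51.7 in J3411. SCR replicates 2 and 3 were above every other line array, and SCR replicate 1 lay under J3411 replicate 1 and WOL replicate 2. The difference was 2.22 on the log2 scale (95% interval 1.30 to 3.14, limma adjusted p = 0.00301), a 4.82-fold higher geometric mean in SCR.

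AT1G53540 and AT2G29500 encode class I small heat shock proteins of the cytosol. AT1G53540 had signals of 81.4, 1765 and 2526 in SCR, against 92.4, 300 and 315 in WOL, 161, 116 and 79.8 in J0571, 59.4, 154 and 242 in GL2 and 66.5, 16.1 and 41.5 in J3411. SCR replicate 1 lay inside the range of the other lines, while replicates 2 and 3 were above every other array. The difference was 2.77 (95% interval 1.15 to 4.40, limma adjusted p = 0.0206).

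AT2G29500 had signals of 155, 770 and 1793 in SCR. It was at 151, 283 and 456 in WOL, 180, 214 and 74.5 in J0571, 101, 184 and 154 in GL2 and 226, 59.0 and 83.6 in J3411. Here SCR replicates 2 and 3 differed from each other more than in HSA32, and WOL had the next highest arrays. The difference was 1.94 (95% interval 0.74 to 3.14, limma adjusted p = 0.0269).

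AT5G51440 encodes a small heat shock protein of the mitochondria. Its signals were 47.1, 981 and 1205 in SCR, against 43.0, 141 and 141 in WOL, 144, 55.6 and 42.6 in J0571, 47.2, 60.5 and 69.4 in GL2 and 130, 22.6 and 45.5 in J3411. J0571 replicate 1, J3411 replicate 1 and WOL replicates 2 and 3 formed a second tier between 130 and 144. The difference was 2.48 (95% interval 0.90 to 4.07, limma adjusted p = 0.0314).

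ATHSP22.0 encodes the small heat shock protein of the endoplasmic reticulum. Its signals were 36.9, 408 and 1050 in SCR. They were 51.6, 176 and 87.4 in WOL, 63.1, 8.59 and 28.7 in J0571, 37.7, 39.6 and 55.6 in GL2 and 28.8, 19.4 and 16.0 in J3411. J0571 replicate 2 was below background, and every other line array was above it. The difference was 2.64 (95% interval 1.15 to 4.13, limma adjusted p = 0.0172).

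**Figure D1:**
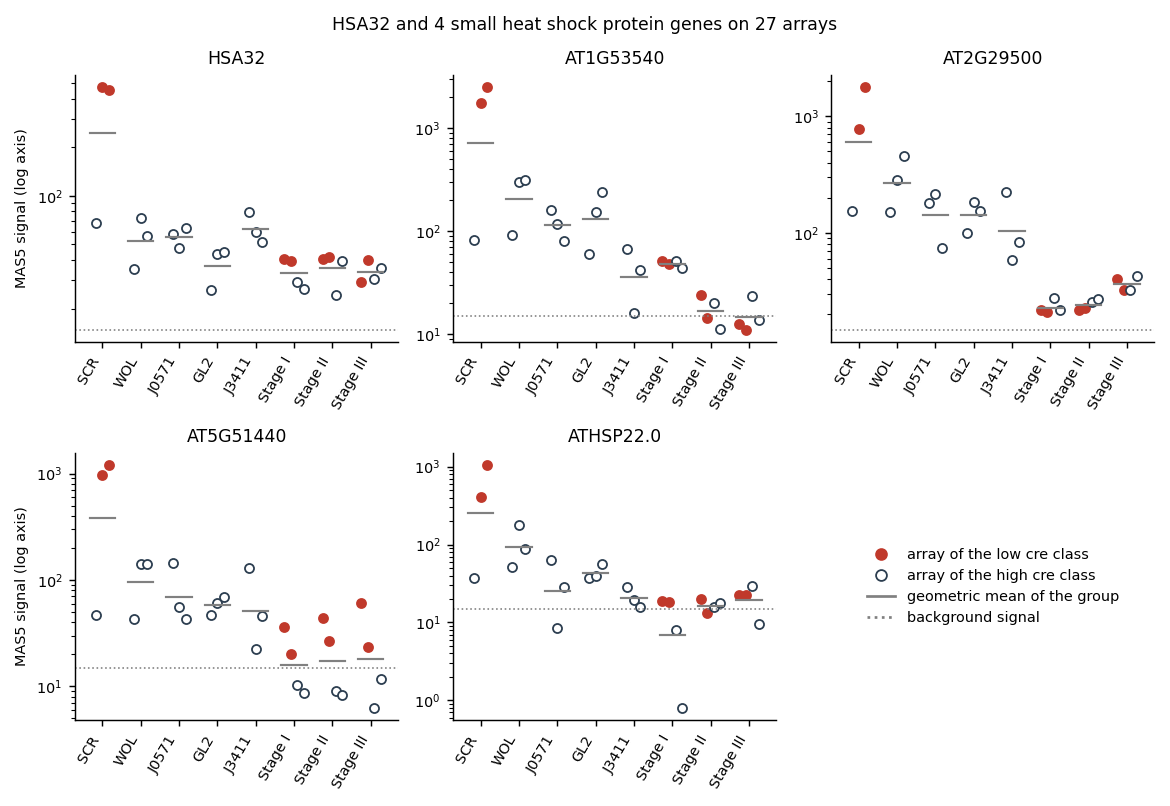
MAS5 signal (log axis) of the 5 genes on the 27 arrays by group, with filled points for arrays of the low cre class, open points for the high class, grey bars for the geometric mean and a dotted line at the background signal. In every panel the filled SCR points, replicates 2 and 3, are above all other arrays, and the open SCR point, replicate 1, lies among the other lines.

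Set beside replicate 1, the mean of SCR replicates 2 and 3 was higher by 2.73 for HSA32, 4.66 for AT1G53540, 2.90 for AT2G29500, 4.46 for AT5G51440 and 4.07 for ATHSP22.0 on the log2 scale. The median of all probe sets was -0.27 in the same difference, which has 1 array on one side and is given without a test. Of all 22746 probe sets, 15 had a larger difference than AT1G53540, 18 than AT5G51440, 32 than ATHSP22.0, 114 than AT2G29500 and 138 than HSA32. All 5 genes were therefore among the 0.607% of probe sets with the largest excess on replicates 2 and 3. The genes and the comparisons were chosen with earlier results of these data known, so this rank is a description and no independent support. Their standard deviation over the 3 SCR arrays was 1.58 to 2.70 on the log2 scale, against a median of 0.49 over all probe sets.

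Without SCR replicate 1 the differences from the other 4 lines were 3.13 for HSA32, 4.33 for AT1G53540, 2.91 for AT2G29500, 3.97 for AT5G51440 and 4.00 for ATHSP22.0, and all 5 were called by limma. With SCR replicate 1 alone against the same 12 arrays, so within the high cre class, they were 0.40, -0.33, 0.01, -0.49 and -0.07 in that order. None was then called by limma, at adjusted p-values of 0.642 to 0.998, and none passed an unadjusted p of 0.05. With 1 SCR array this fit assumes that SCR varies as the other lines do, and it called 1.71% of all probe sets. Leaving out SCR replicate 2 or SCR replicate 3 ended the call of 4 of the 5 genes and left that of HSA32, whose limma adjusted p stayed at or under 0.0402 whichever array was left out.

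**Figure D2:**
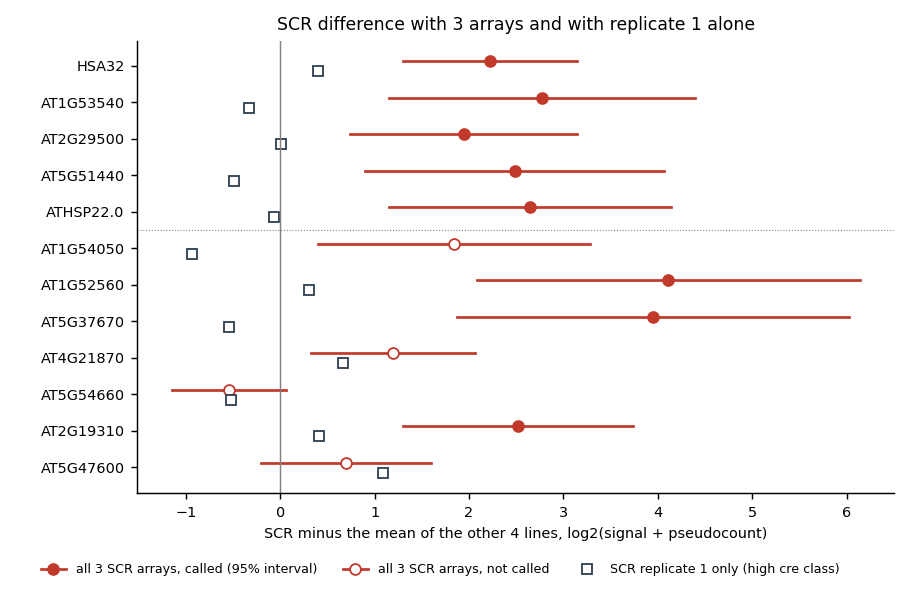
Difference of SCR from the mean of the other 4 lines on the log2(signal + pseudocount) scale for the 5 genes, above the dotted line, and 7 further small heat shock protein genes. Circles with 95% intervals use all 3 SCR arrays and are filled where called, while squares use SCR replicate 1 alone; the squares of the 5 genes lie between -0.49 and 0.40.

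J0571 shares endodermis and quiescent centre with SCR by its description. Against J0571 alone, HSA32 was higher in SCR by 2.10 (limma adjusted p = 0.0273) and ATHSP22.0 by 3.19 (adjusted p = 0.0362), where 8.95% of all probe sets were called and 3.31% were called higher. Only HSA32 had all SCR arrays, from 68.3 up, above all J0571 arrays, which reached 63.3; such separation upwards was met by 9.26% of all probe sets. The other 3 genes differed by 2.06 to 2.63 and missed the threshold. Both calls were lost without SCR replicate 2, without SCR replicate 3 and without any single J0571 array, at adjusted p-values up to 0.132 for HSA32 and 0.162 for ATHSP22.0. Without SCR replicate 1 all 5 genes were called, and with it alone none was, nor did any pass an unadjusted p of 0.05.

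The other 4 lines were compared without the SCR arrays, each with the mean of the other 3. These comparisons share arrays, so each line's values are given on their own. In WOL 1 of the 5 genes was called higher, with 9.84% of all probe sets called and 6.99% called higher. ATHSP22.0 was at 51.6 to 176 in WOL, against 8.59 to 63.1 in J0571, GL2 and J3411, and was higher by 1.62 (95% interval 0.61 to 2.62, limma adjusted p = 0.0443). The groups overlapped at WOL replicate 1. That call did not hold without WOL replicate 2 or 3, J0571 replicate 3, or any 1 of the J3411 or GL2 arrays, at adjusted p-values up to 0.273, nor under 6 of the other settings tried. AT1G53540 was 1.31 and AT2G29500 1.06 above the other 3 lines in WOL, with adjusted p-values of 0.121 and 0.161.

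In J3411, AT1G53540 was lower, with signals of 16.1 to 66.5 there and 59.4 to 315 in the other 3 lines (log2 difference -1.95, 95% interval -3.01 to -0.90, limma adjusted p = 0.0219). The groups overlapped through J3411 replicate 1, at 66.5, and GL2 replicate 1, at 59.4. No other gene of the 5 was called in J3411. Of all probe sets 10.5% were called there, 5.4% of all as lower, and the call of AT1G53540 did not hold once J3411 replicate 2 was left out. In GL2 limma called none of the 5 genes, with 12.5% of all probe sets called; 1, HSA32, passed an unadjusted p of 0.05, at a difference of -0.59. In J0571 none was called and none passed an unadjusted p of 0.05, with 7.41% of all probe sets called.

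J3411 replicate 1 had the highest signal of its line in all 5 genes, and J0571 replicate 1 in AT1G53540, AT5G51440 and ATHSP22.0. Within the 4 lines the standard deviation between arrays of one line was 0.78 to 0.90 on the log2 scale for the 4 small heat shock protein genes and 0.38 for HSA32, against a median of 0.43 over all probe sets. A larger spread than that of AT5G51440 was found in 7.39% of all probe sets, and a larger one than that of HSA32 in 59.1%.

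**Figure D3:**
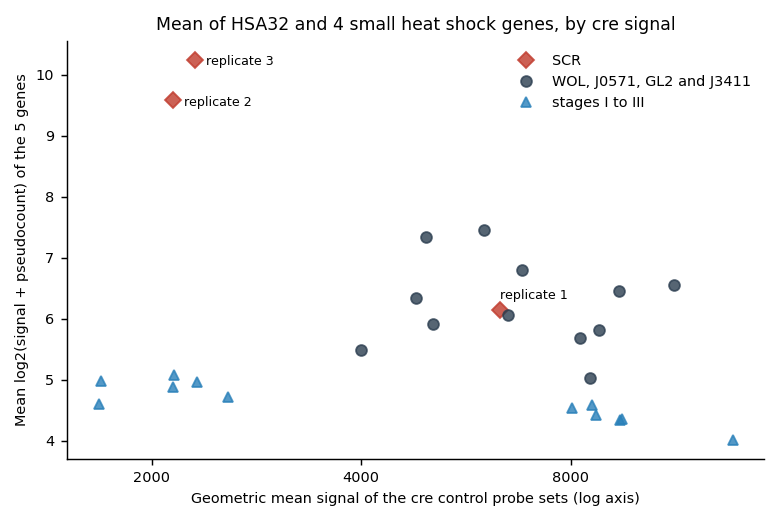
Mean log2(signal + pseudocount) of the 5 genes on each array against the geometric mean signal of the cre controls on a log axis, with diamonds for SCR, circles for the other lines and triangles for the stages. SCR replicates 2 and 3 stand at 9.58 and 10.2, and the 6 stage arrays with similarly low cre signals at no more than 5.08; SCR replicate 1 stands at 6.15 among the other lines.

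The 12 arrays of the other lines were higher than the 12 stage arrays in AT2G29500 without overlap, with signals of 59.0 to 456 in the lines and 20.9 to 42.3 in the stages. Of all probe sets, 1.99% had every one of these line arrays above every stage array. AT1G53540 and HSA32 had 10 of the 12 line arrays above all stage arrays, ATHSP22.0 had 7 and AT5G51440 had 5. The mean differences were 2.40 for AT2G29500, 2.06 for AT1G53540, 1.80 for AT5G51440, 1.31 for ATHSP22.0 and 0.55 for HSA32 on the log2 scale. They are given without a test, since marker lines and root segments differ in tissue. The GAPDH 3'/5' ratio was 0.717 to 1.95 on the line arrays and 4.34 to 31.7 on the stage arrays, and its part in the difference was not tested. All 12 line arrays were of the high cre class, while 6 of the stage arrays were of the low class. AT5G51440 was at 22.6 to 144 on the line arrays. It was at 6.26 to 11.7 on the high-class stage arrays and at 20.1 to 61.2 on the low-class ones. The part of the class was not tested either. In whole segments, fewer cells expressing a gene and less RNA per cell cannot be told apart.

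Along the root, AT1G53540 had the largest difference between Stage III and Stage I of the 5 genes. Its signals were 50.8, 47.3, 51.0 and 43.6 in Stage I, 24.0, 14.2, 19.9 and 11.0 in Stage II and 12.5, 11.0, 23.1 and 13.7 in Stage III. The 4 Stage I arrays were above all 8 others, while 2 Stage II and 3 Stage III arrays were below background. The means were 48.2 ± 3.50, 17.3 ± 5.80 and 15.1 ± 5.49 along the 3 stages (SD, n = 4 each). AT1G53540 was lower in Stage II than in Stage I by 1.41 on the log2 scale (95% interval of the difference -2.05 to -0.76, limma adjusted p = 0.00427), where 20.1% of all probe sets were called, 11.1% were called lower and 14.6% separated downwards. In Stage III it was lower than in Stage I with a difference of -1.58 (95% interval -2.22 to -0.93, limma adjusted p = 0.00058), where 43.1% were called, 22.1% were called lower and 20.9% separated downwards. Both calls held whichever array was left out, and neither held with all 27 arrays in 1 fit, at adjusted p-values of 0.158 and 0.0619. With the arrays of 1 cre class, so 2 per stage, Stage II differed from Stage I by -1.30 in the low class and -1.52 in the high class, at limma adjusted p-values of 0.0544 and 0.0885.

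AT2G29500 ran the other way at lower contrast. It was at 21.7, 20.9, 27.5 and 21.8 in Stage I, 21.9, 22.5, 25.4 and 27.2 in Stage II and 39.9, 32.1, 32.7 and 42.3 in Stage III. All Stage III arrays were above all Stage I and Stage II arrays. It was higher in Stage III than in Stage I by 0.62 (95% interval 0.12 to 1.12, limma adjusted p = 0.0431) and differed from Stage II by 0.55 (adjusted p = 0.0896). Between Stage III and Stage I, 21% of all probe sets were called higher and 19.5% separated upwards, and against Stage II 16.5% separated upwards. The call was lost without replicate 1, 2 or 4 of Stage I, replicate 1 or 2 of Stage II, or replicate 1, 2 or 4 of Stage III, at adjusted p-values up to 0.101. It did not hold after quantile normalization, with the replicate number as a block, with all 27 arrays in 1 fit or within either cre class, at adjusted p-values of 0.0538 to 0.348. The 2 class I genes thus differed in opposite directions between Stage III and Stage I.

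HSA32 was not called between any of the stages. It had signals of 40.3, 39.4, 29.4 and 26.3 in Stage I, 40.7, 42.0, 24.2 and 39.5 in Stage II and 29.2, 40.04, 30.5 and 35.5 in Stage III. All 12 were above background, and its Stage III against Stage I difference was 0.01, with a 95% interval of -0.53 to 0.55. ATHSP22.0 was near background throughout, at 19.1, 18.2, 7.97 and 0.797 in Stage I, 20.1, 13.3, 15.7 and 17.7 in Stage II and 22.5, 22.7, 29.6 and 9.69 in Stage III, and differed by 1.01 between Stage III and Stage I (95% interval -0.13 to 2.15, adjusted p = 0.145). Between Stage III and Stage II none of the 5 genes was called by limma, with 30.9% of all probe sets called, and 1, AT2G29500, passed an unadjusted p of 0.05.

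AT5G51440 followed the cre class and not the stage. On the low-class arrays, replicates 1 and 2, it was at 36.0 and 20.1 in Stage I, 44.4 and 26.8 in Stage II and 61.2 and 23.2 in Stage III. On the high-class arrays, replicates 3 and 4, it was at 10.2 and 8.70 in Stage I, 8.95 and 8.24 in Stage II and 6.26 and 11.7 in Stage III. All 6 low-class arrays were above background and all 6 high-class arrays below it. With stage as a block the low class was higher by 1.65 (95% interval 1.02 to 2.28, limma adjusted p = 0.00325), at least 2.21-fold when signals under background are raised to it. The call held whichever array was left out. The low class is replicates 1 and 2 of every stage, and same-numbered stage arrays varied together, with a median correlation of 0.20. This test counts the arrays as independent, so its p-value may be too small. In this comparison 10.8% of all probe sets were called and 6.11% were called higher, and 0.941% had all low-class arrays above all high-class arrays.

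None of the other 4 genes was called between the classes, with differences of 0.31 for HSA32, -0.07 for AT1G53540, -0.15 for AT2G29500 and 0.73 for ATHSP22.0. In SCR the same split, with 2 arrays against 1, gave 2.73, 4.66, 2.90 and 4.07 for these genes, with no test. Among stage arrays the GAPDH 3'/5' ratio was 4.34 to 7.85 in the low class, against 14.9 to 31.7 in the high class, so cre class and this ratio cannot be told apart among the stages.

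**Figure D4:**
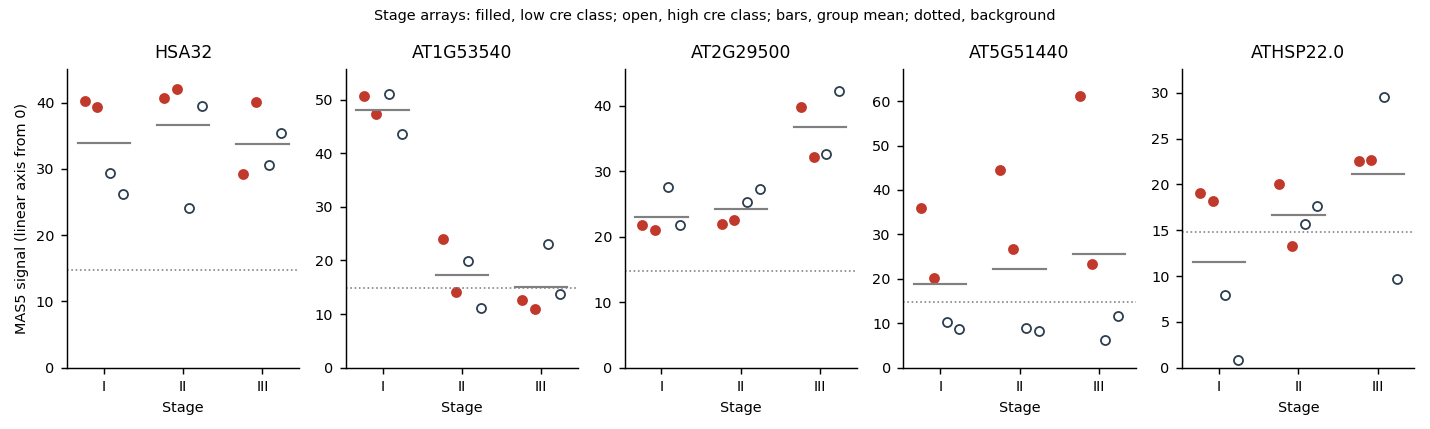
MAS5 signal (linear axis from 0) of the 5 genes on the 4 arrays of each stage, with filled points for the low cre class, open points for the high class, grey bars for the mean and a dotted line at the background. AT1G53540 is highest on the 4 Stage I arrays, AT2G29500 on the 4 Stage III arrays, and AT5G51440 separates by class in each stage.

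A further list of 10 small heat shock protein genes had 7 with a probe set of their own. In SCR 3 of the 7 were higher and none lower, where 7.61% of all probe sets were called higher and 9.86% lower, and the median difference was 1.85. AT1G52560 had signals of 24.0, 1389 and 1373 in SCR, against 1.18 to 194 in the other 4 lines (log2 difference 4.11, limma adjusted p = 0.00839). All J3411 arrays and some GL2 and J0571 arrays were below background, so the size of this difference is uncertain. AT5G37670, of the peroxisome, had 9.99, 1682 and 1027 in SCR and 3.28 to 41.9 in the other lines (3.95, adjusted p = 0.0119). Its signal on SCR replicate 1 was below background, so the size of its excess on replicates 2 and 3 is not given. AT2G19310 had 39.0, 228 and 598 in SCR and 4.81 to 67.6 in the other lines (2.52, adjusted p = 0.0074). With SCR replicate 1 alone the 3 differences were 0.30, -0.54 and 0.41 and none was called, and each call was lost without SCR replicate 2 or 3.

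The other 4 of the 7 were not called with all SCR arrays. AT1G54050, of class III, which works in nucleus and cytosol, had signals of 102, 1749 and 2024 in SCR and 55.2 to 493 in the other lines (1.85, adjusted p = 0.0741), and was called without SCR replicate 1, at a difference of 3.24. AT4G21870 was at 10.3, 26.4 and 14.2 in SCR and 2.06 to 20.3 in the other lines, with 2 of the SCR arrays below background, so no size is given for its difference (adjusted p = 0.0547). AT5G54660, named like AT5G47600 after its values were seen, was below background on all SCR arrays, and AT5G47600 differed by 0.70.

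AT5G54660 and AT1G52560 were the further small heat shock genes that separated WOL from J0571, GL2 and J3411. AT5G54660 was at 34.9 to 60.8 in WOL and at 0.706 to 3.31 in the other 3 lines, all below background. It was at least 3.32-fold higher in WOL when signals under background are raised to it (limma adjusted p = 6.8e-06). AT1G52560 was at 67.5, 129 and 194 in WOL and at 1.18 to 57.3 in the other 3 lines (3.35, adjusted p = 0.00474). All J3411 arrays, GL2 replicates 1 and 3 and J0571 replicate 3 were below background, so the size of this difference is uncertain. Of all probe sets, 5% had all WOL arrays above the other 3 lines. Both calls held whichever array was left out. The root hair marker sum was 229 to 536 in WOL, against 35.4 to 414 in the other 3 lines, with the 414 from J3411 replicate 3, and the part of these markers was not tested.

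Along the stages, 2 of these 7 genes were higher and 2 lower in Stage III than in Stage I, with a median difference of 0.10, against 0.07 over all probe sets. Of all probe sets, 21% were called higher and 22.1% lower in this comparison. AT5G54660 was at 9.86 to 23.9 in Stage I, 11.2 to 20.7 in Stage II and 68.0 to 158 in Stage III (Stage III against Stage I 2.25, limma adjusted p = 6.9e-05). AT2G19310 was higher too, at 3.95 to 16.2 in Stage III, against 1.42 to 3.61 in Stage I (adjusted p = 0.0115). All 4 Stage I arrays and 2 of the Stage III arrays were below background, and with signals under background raised to it the difference was at least 1.02-fold. AT1G54050 was lower, at 37.2 to 59.97 in Stage I, 12.5 to 38.5 in Stage II and 6.98 to 15.3 in Stage III (-1.77, adjusted p = 0.00117). Its Stage III replicates 1, 3 and 4 were below background, so the size of this difference is uncertain. AT5G47600 was lower as well, at 8.54 to 14.6 in Stage III, against 19.4 to 45.0 in Stage I (adjusted p = 0.00579). All 4 Stage III arrays were below background, and with signals under background raised to it AT5G47600 was at least 1.87-fold lower in Stage III. The Stage II arrays of AT1G54050 overlapped those of Stage I.

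**Figure D5:**
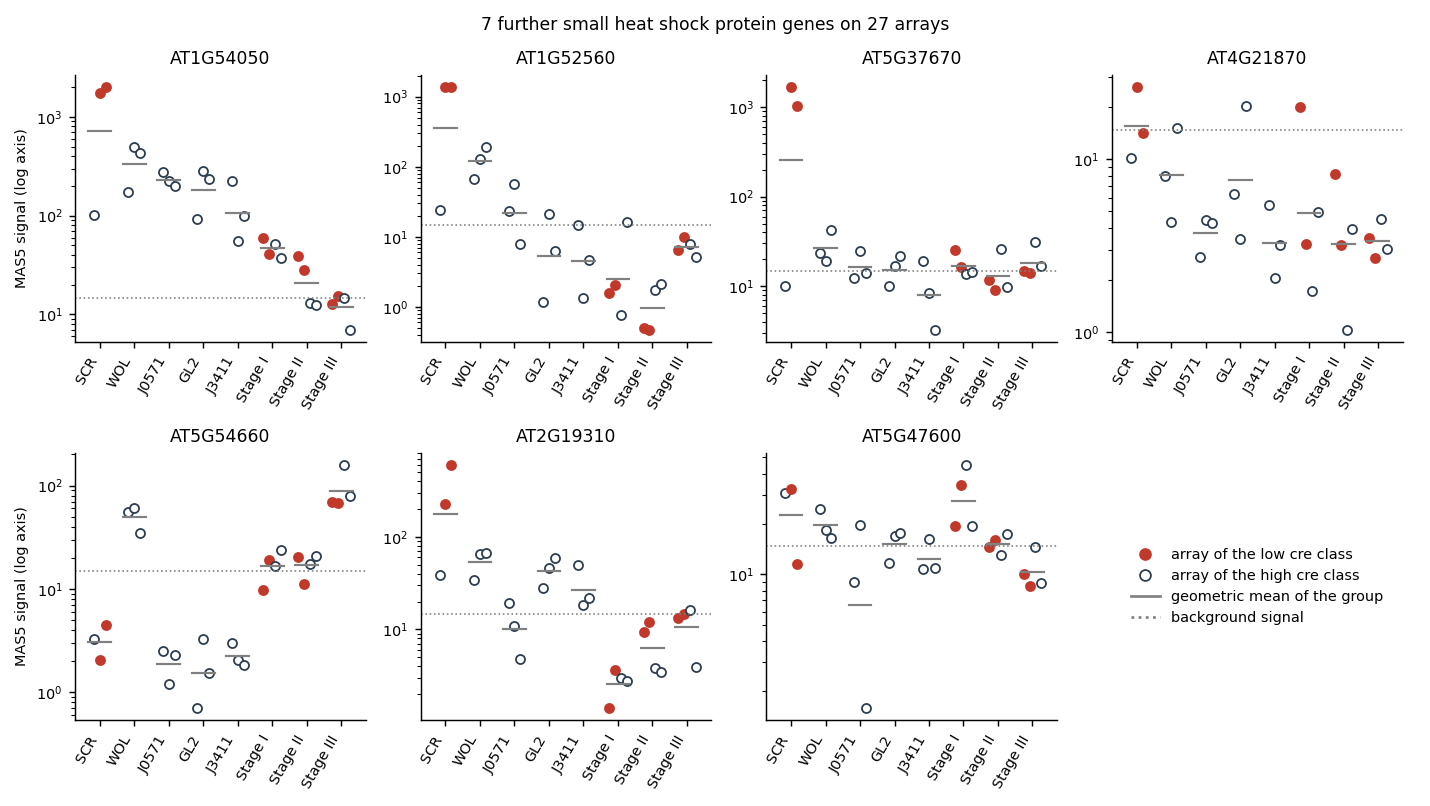
MAS5 signal (log axis) of 7 further small heat shock protein genes on the 27 arrays, drawn as for the 5 genes. AT1G54050, AT1G52560, AT5G37670 and AT2G19310 have SCR replicates 2 and 3 above all other arrays, and AT5G54660 is highest in Stage III and WOL.

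The proteins that work with small heat shock proteins were covered thinly. No gene was measured of 21 heat shock transcription factors, 3 HSP100 disaggregases, 7 HSP90 genes or 7 chaperonins. Of 13 HSP70 genes 2 were measured, Hsp70-2 and AT3G09440, both of the cytosol, and limma called neither in SCR, with differences of -0.35 for Hsp70-2 and 0.07 for AT3G09440 and no unadjusted p under 0.05. Hsp70-2 was lower in Stage III, at 28.1 to 94.9, than in Stage I, at 142 to 207 (-1.56, adjusted p = 0.000391). AT3G09440 had signals of 964, 1242 and 2408 in SCR and 853 to 2796 in the other 4 lines. Like AT5G51440 it was higher in the low cre class among the stages, at 270 to 418 against 71.3 to 152 in the high class (1.66, limma adjusted p = 1.7e-05). Here too, same-numbered stage arrays were counted as independent, so the p-value may be too small. Of 10 endoplasmic reticulum chaperones 2 were measured, and neither was called in SCR, with CRT1b passing an unadjusted p of 0.05 (-0.53).

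Of 11 genes listed as cochaperones of HSP70 and HSP90, 6 were measured, with 4 higher and 1 lower in SCR, where 7.61% of all probe sets were called higher. The place of 1 of the 6, AT5G52840, in this list could not be checked, and it was not called. AT5G48570 (ROF2), a peptidyl-prolyl isomerase of the FKBP family, had signals of 112, 1724 and 1508 in SCR and 14.8 to 249 in the other lines (2.97, limma adjusted p = 0.00761). Hop3, which bridges HSP70 and HSP90, had 89.3, 614 and 704 in SCR and 30.3 to 195 in the other lines (2.15, adjusted p = 0.01). SGT1A, an HSP90 cochaperone, had 11.8, 123 and 136 in SCR and 1.25 to 34.7 in the other lines (2.24, adjusted p = 0.0173). SCR replicate 1, WOL replicate 1, GL2 replicate 3 and all J0571 and J3411 arrays were below background for SGT1A. With signals under background raised to it, SGT1A was at least 3.42-fold higher in SCR. In these 3 genes, as in the 5 genes, SCR replicates 2 and 3 were above every other array. The order of the remaining arrays was not the same in all of them. SGT1A was at 43.3 to 55.2 in Stage I, above every array of the other lines. Each of the 3 calls was lost without SCR replicate 2 or 3. Fes1A, the fourth, was higher by 1.75 (adjusted p = 0.0439), and leaving out any 1 of 10 of the 15 arrays ended its call.

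AT4G02450, a p23-like cochaperone of HSP90, went the other way. Its signals were 96.7, 60.9 and 46.4 in SCR, below every array of the other lines, at 377 to 974 (-2.94, limma adjusted p = 4.2e-06). It stayed lower with SCR replicate 1 alone (-2.39, adjusted p = 0.00558). Of all probe sets, 9.86% were called lower in SCR and 3.13% had all SCR arrays below the other lines. AT4G27890, the 1 gene measured of 7 other targets of heat shock factors, was at 48.6, 74.8 and 75.4 in SCR and 17.1 to 36.4 in the other lines (1.13, adjusted p = 0.00627); separation upwards in SCR was met by 1.98% of all probe sets. Leaving out SCR replicate 2 ended its call, and with SCR replicate 1 alone the difference was 0.73 and not called.

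Along the root, 1 of the 6 genes listed as cochaperones was higher and 3 were lower in Stage III than in Stage I, where 21% of all probe sets were called higher and 22.1% lower. AT5G52840 was not called there either. AT5G48570 was at 55.4 to 76.0 in Stage I, 90.8 to 174 in Stage II and 95.7 to 247 in Stage III (1.09, limma adjusted p = 0.00403). Fes1A was lower (-1.38, adjusted p = 0.000514), at 41.1 to 50.2 in Stage III, against 75.9 to 159 in Stage I. AT4G02450 was lower too, at 163 to 280 in Stage III, against 440.5 to 1078 in Stage I (-1.77, adjusted p = 0.000253). SGT1A was the third (-0.68, adjusted p = 0.0406), and leaving out any 1 of 6 arrays ended its call.

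Across arrays the 5 genes varied together where the SCR arrays were included. The 10 pairs had Pearson correlations of log2 signals of 0.78 to 0.89 over the 27 arrays, with a median of 0.84. Without SCR the median was 0.68 over 24 arrays, 0.58 over the 12 line arrays and -0.07 over the 12 stage arrays. These arrays share groups and the cre class, and the correlations are descriptions only.

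The genes whose log2 signals most resembled the mean of the 5 genes were named by the 10 highest Pearson correlations. Over all 27 arrays they were Fes1A (r = 0.94), a nucleotide exchange factor of HSP70, AT2G20560 (0.93), of the DnaJ family, AT1G54050 (0.92), AT5G35320, AT1G55530, AT2G19310, AT1G71000, AT1G14200, Hop3 and AT4G29070 (0.89). Fes1A had signals of 147, 1619 and 1935 in SCR, against 124 to 522 in the other lines and 40.6 to 159 in the stages. AT2G20560 had 74.4, 980 and 1026 in SCR, against 19.3 to 192 in the other lines and 2.88 to 38.4 in the stages. In both, SCR replicates 2 and 3 stood above all other arrays, which their choice by likeness to a profile led by those arrays makes likely. Over the 24 arrays without SCR, 4 of the 10 most alike were the same, namely AT1G54050 (0.91), Fes1A (0.89), AT1G14200 (0.88) and AT2G20560 (0.85). For HSA32 alone the 5 most alike over 27 arrays were AT5G35320 (0.93), AT1G44414 (0.91), AT5G25450 (0.90), AT4G09150 (0.89) and AT5G53680 (0.88). AT1G44414 had signals of 12.6, 704 and 739 in SCR, against 6.61 to 28.8 in the other lines and 0.848 to 20.2 in the stages.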

How the data were processed

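RNA of 27 Arabidopsis root samples was measured on 1 ATH1 array each. Each deposited column holds 1 signal intensity for every probe set, made by the authors with MAS5 per the submitters' processing notes, which as used here name no version. The mean of every column, with 2% trimmed at each end, was 100.01 after rounding, so the deposited intensity values are scaled. They were used with no further scaling. Control probe sets (64) were left out, which left 22746. The annotation used assigns 1 gene to 13513 of them, several to 503 and none to 8730, and 13436 of the first matched a RefSeq locus.

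limma 3.58.1 in R 4.3.3 (lmFit, contrasts, eBayes with an intensity trend) was fitted with a mean per group to log2(signal + 2.37). One fit held the 15 line arrays, one the 12 line arrays without SCR and one the 12 stage arrays, and the stage fit was repeated with the cre class and stage as terms. P-values were adjusted over all probe sets in each of 10 comparisons. Arrays were put into cre classes at the largest gap of the mean log2 cre signal. The pipeline was tested on simulated data. Python 3.11.15 with pandas 2.3.3 computed ranges and correlations.

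The 5 genes, the lists and the comparisons were chosen with earlier results of these data known. All genes of the set with a probe set of their own are named. Of each list, up to 4 genes with the smallest adjusted p in SCR against the other lines were to be named. All measured genes of the further small heat shock list and of the cochaperone list are named, which goes beyond that rule. Of the likest genes, 10 are named by Pearson correlation with the mean of the set over 27 arrays and 10 over 24, with 7 of the second set printed, and 5 for HSA32. With 3 or 4 arrays in a group, that number limits the precision. Alternatives were other pseudocounts, no trend, probe sets above the median level only, quantile normalization, replicate number or cre class as a block, 1 cre class, all arrays in 1 fit, SCR kept in the line fits, and each array left out in turn.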

Additional observations from a re-analysis of the deposited data

Results flagged for a closer look

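The 5 genes and the 7 further small heat shock genes gave 36 groups of 4 arrays to test over 3 stages. Of these groups, 3 held an array whose gap to the nearest other was above Dixon's 95% critical value. Chance flags about 1 in 20 groups. HSA32 was at 24.2 on Stage II replicate 3, with the other 3 arrays at 39.5 to 42.0. AT2G29500 was at 27.5 on Stage I replicate 3, with the other 3 at 20.9 to 21.8. AT2G19310 was at 3.95 on Stage III replicate 4, below background, with the other 3 at 13.4 to 16.2.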

How the results depend on the processing

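Over 98 differences of single genes, 689 of 821 values from other settings kept direction and side of the threshold, 90 lost their call, 5 gained one and 37 changed sign. With 1 array left out, 1086 of 1260 did, 135 lost the call, 8 gained one and 31 changed sign. The causes were not tested.

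For SCR against the other 4 lines, the cre class as a block and the high class alone gave the same differences. The design fixes this, because among the line arrays only SCR replicates 2 and 3 were of the low class. Both settings are in the tally above. AT1G53540 was then at -0.33, AT5G51440 at -0.49, ATHSP22.0 at -0.067, AT1G54050 at -0.94, AT5G37670 at -0.54 and Fes1A at -0.63. Between 1 and 5 of the 5 genes were called with 1 array left out. Against J0571 the count was 0 in both settings, with AT1G53540 at -0.48 and AT5G51440 at -0.55, 1 without the trend, 4 with all 27 arrays and 0 to 5 with 1 array left out.

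With 1 array left out, 0 to 2 genes were called in J3411, where AT5G51440 ranged from -1.13 to 0.078. In WOL 0 to 1 were called and HSA32 ranged from -0.18 to 0.33. In GL2, AT2G29500 ranged from -0.35 to 0.082 and ATHSP22.0 from -0.010 to 0.42. In J0571, AT1G53540 ranged from -0.049 to 0.45, AT2G29500 from -0.44 to 0.30 and AT5G51440 from -0.42 to 0.43. The WOL call was lost, leaving 0, with no pseudocount, after quantile normalization, which put HSA32 at -0.16, without the trend, with the replicate block, with all 27 arrays and with SCR among the 15 line arrays. With SCR included HSA32 was at -0.20 in J3411, -0.51 in WOL and -0.40 in J0571, AT5G51440 at -0.0038 in WOL and -0.55 in J0571, AT1G53540 at -0.27 in GL2 and -0.51 in J0571, and ATHSP22.0 at -0.46 in GL2.

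Between Stage II and Stage I, 0 genes were called with the dim filter, which tests none of the 5, with all 27 arrays, and in either class alone. AT5G51440 was at -0.11 in the high class and ATHSP22.0 at -0.17 in the low class. Between Stage III and Stage II, AT5G51440 was at -0.26 and ATHSP22.0 at -0.073 after quantile normalization, HSA32 at 0.083 and AT1G53540 at 0.23 in the high class, and 1 gene was called without the trend. Between Stage III and Stage I, 0 were called with the dim filter, all 27 arrays or the high class, and 1 in the low class or after quantile normalization, which gave -0.13 for HSA32 and -0.055 for AT5G51440. AT5G51440 was at -0.10 in the high class and HSA32 at -0.21 in the low class. With 1 array left out 1 to 2 were called. Over such fits HSA32 ranged from -0.0095 to 0.27 for Stage II against Stage I and from -0.10 to 0.10 for Stage III against Stage I. AT5G51440 ranged from -0.29 to 0.46 for Stage II against Stage I, -0.46 to 0.50 for Stage III against Stage II and -0.35 to 0.61 for Stage III against Stage I.

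Between the cre classes the dim filter left none of the 5 to test, so 0 were called. With all 27 arrays, which adds the SCR split, AT1G53540 was at 0.79 and AT2G29500 at 0.40, and with 1 array left out AT1G53540 ranged from -0.20 to 0.075.

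Among the lines, 2 of 30 same-numbered pairs correlated above 0.1, so replicate numbers did not pair them. Among the stages 11 of 12 did, with the lowest at 0.098 and a median of 0.20, against a median of -0.10 and 7 of 36 for differently numbered pairs. Not every pair was above 0.1, so the fit without the block was kept, but same-numbered stage arrays varied together, and stage replicates 1 and 2 share the low cre class. The replicate block left 1 gene called between Stage III and Stage I (AT2G29500 adjusted p = 0.0538) and 0 in WOL, and changed no other count of the 5 genes. It could not be fitted to the cre comparison. Signals near 14.8 set the limit for ATHSP22.0 and AT5G51440 in the stages.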

Other observations

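The 10 genes most like the set over the 24 arrays without SCR included transcripts that were low, not high, on SCR replicates 2 and 3. The chloroplast-encoded ndhD (r = 0.88) was at 618, 97.8 and 127 in SCR, against 232 to 626 in the other lines and 73.2 to 185 in the stages. The chloroplast-encoded psbB (0.86) had 390, 76.8 and 85.9 in SCR, against 118 to 396 in the other lines and 37.1 to 166 in the stages. AT2G07678 (0.85) had 104, 10.7 and 21.8 in SCR, against 34.8 to 124 in the other lines and 0.684 to 15.7 in the stages. In all 3, SCR replicate 1 was within the range of the other lines and SCR replicates 2 and 3 were below it.

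ATERDJ3B, a DnaJ cochaperone of the endoplasmic reticulum, and the calreticulin CRT1b were both higher in GL2 than in the mean of WOL, J0571 and J3411, by 0.64 (limma adjusted p = 0.0494) and 0.83 (adjusted p = 0.0235) on the log2 scale. CRT1b had signals of 2566, 2806 and 3838 in GL2, against 1278 to 2887 in the other 3 lines, and the groups overlapped through J3411 replicate 3. The small heat shock protein of the same compartment, ATHSP22.0, differed by 0.22 in that comparison and was not called. The CRT1b call was lost without GL2 replicate 2 or 3 and that of ATERDJ3B without any 1 of 11 of the 12 arrays.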
